A study of Mus musculus and Homo sapiens with 33 samples.

Results

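The genes described here encode the proteins that license replication origins and make up the replisome, 57 in all out of 38924 gene IDs in the count matrix. They were found by symbol from a list of functions, without a threshold on any measured value. They were divided by role into licensing (9 genes), the replicative helicase with its activators (19), polymerases and primase (11), the sliding clamp with its loader and the Okazaki fragment enzymes (8), and fork and chromatin factors (10). RNA was measured in KPL cells, a mouse lung adenocarcinoma line grown in culture, in 3 control libraries named EtOH (ethanol) and 3 libraries named OHT. The OHT cells received 4-hydroxytamoxifen (4-OHT) for 72 hours, at a dose the labels write as 10 nm, to delete Lin9. Lin9 encodes a core subunit of MuvB, a complex that binds cell cycle promoters with B-MYB or with pocket proteins. The labels give no further genotype, do not name the promoter that drives the recombinase, and do not say that the libraries came from separate cultures. The p-values thus cover no more than the spread seen among the 6 libraries, which may be technical. All groups share the KPL line, and no library of 4-OHT-treated cells that keep Lin9 was used here, so the drug and the deletion cannot be told apart.

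Replication starts in separate steps. In licensing, the origin recognition complex (ORC), CDC6 and CDT1 load the MCM2-7 ring onto DNA as an inactive double hexamer while geminin holds CDT1 in check. In S phase the DBF4-CDC7 kinase and cyclin-dependent kinase, through TICRR and TOPBP1, recruit CDC45 and GINS to the ring, and the assembled CMG helicase unwinds DNA ahead of polymerases alpha, delta and epsilon. Many of these genes are known E2F targets with a peak of RNA at the G1/S boundary, whereas the genes best known as MuvB and B-MYB targets peak in G2 and mitosis and often carry a CHR element in the promoter. Which of these groups moved when Lin9 was depleted is the question of the comparison.

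The promoters of 5 of the 9 members that passed the test are shown because their motif content differs while 4 of the genes moved in the same direction. Windows of 300 bases, from 250 before to 50 after the annotated start, were taken from RefSeq for GRCm38.p6. All 5 genes lie on the minus strand, and the sequences are written 5′ to 3′ in the direction of transcription. The windows are chr6:88898731-88899030 for Mcm2, chr1:128359656-128359955 for Mcm6, chr5:138171834-138172133 for Mcm7, chr5:8422667-8422966 for Dbf4 and chr5:117388974-117389273 for Rfc5. Capitals mark matches on either strand to any of 3 motifs, and matches that overlap run together. The CHR was searched as TTTGAA and in its variant form, which has the letters TTCGAA. The CCAAT box was searched by its name. The E2F motif was searched in 4 forms, TTTCCCGC, TTTGGCGC, TTTCGCGC and TTTGCCGC.
Mcm2: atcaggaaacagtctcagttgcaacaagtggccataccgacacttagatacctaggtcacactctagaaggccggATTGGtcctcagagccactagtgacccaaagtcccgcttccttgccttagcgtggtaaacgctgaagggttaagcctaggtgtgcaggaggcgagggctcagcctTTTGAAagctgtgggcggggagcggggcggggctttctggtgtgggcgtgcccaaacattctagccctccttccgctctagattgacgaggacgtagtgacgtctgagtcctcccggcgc
Mcm6: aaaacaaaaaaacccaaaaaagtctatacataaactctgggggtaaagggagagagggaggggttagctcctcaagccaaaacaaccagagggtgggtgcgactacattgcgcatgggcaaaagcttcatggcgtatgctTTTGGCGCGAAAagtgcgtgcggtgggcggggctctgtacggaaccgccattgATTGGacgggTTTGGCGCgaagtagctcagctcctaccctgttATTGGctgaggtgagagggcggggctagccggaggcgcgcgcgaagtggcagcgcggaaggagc
Mcm7: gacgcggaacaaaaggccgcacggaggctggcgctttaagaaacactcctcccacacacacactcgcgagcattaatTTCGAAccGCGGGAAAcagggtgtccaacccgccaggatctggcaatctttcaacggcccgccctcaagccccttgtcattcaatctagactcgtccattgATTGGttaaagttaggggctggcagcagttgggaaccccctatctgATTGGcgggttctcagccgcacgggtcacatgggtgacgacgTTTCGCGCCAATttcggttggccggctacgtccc
Dbf4: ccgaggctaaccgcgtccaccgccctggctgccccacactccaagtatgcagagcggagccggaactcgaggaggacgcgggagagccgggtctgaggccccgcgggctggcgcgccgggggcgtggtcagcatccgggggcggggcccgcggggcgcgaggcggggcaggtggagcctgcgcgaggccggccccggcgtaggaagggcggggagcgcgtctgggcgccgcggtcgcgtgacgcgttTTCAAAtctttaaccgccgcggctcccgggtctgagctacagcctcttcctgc
Rfc5: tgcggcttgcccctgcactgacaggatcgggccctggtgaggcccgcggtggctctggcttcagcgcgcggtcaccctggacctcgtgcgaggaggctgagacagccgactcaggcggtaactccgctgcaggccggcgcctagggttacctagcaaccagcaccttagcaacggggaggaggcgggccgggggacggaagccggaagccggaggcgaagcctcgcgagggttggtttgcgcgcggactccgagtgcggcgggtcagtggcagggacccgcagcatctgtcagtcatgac
The Mcm2 window holds a CHR that starts 70 bases before the gene start and no E2F match. The Mcm6 window holds 3 E2F matches, of which those starting 110 and 106 bases before the start overlap, and no CHR. Mcm7 has both, with a CHR at 173 and an E2F match at 165 bases before the start in this window. Its other annotated window holds a CCAAT box alone. The only match in Dbf4 is a CHR on the opposite strand (TTCAAA) that begins 3 bases before the start, and the window of Rfc5, the member that was higher, holds no match.

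Of the 3 motifs, E2F was the one whose share differed most between the members and all promoters. RefSeq windows were found for 48 of the 57 members, 58 windows in all, and Gins1, Gins2, Gins4, Gmnn, Mcm4, Pole, Prim2, Rfc2 and Tipin had none. An E2F match stood in 36.2% of the member windows and in 2.26% of all 32851 windows of the same length. For CHR the shares were 17.2% and 19.2%, and for CCAAT they were 50.0% and 37.4%. Counted per gene, a match in any window of the gene stood in 41.7% of the 48 members and 4.79% of the 9003 tested genes with a window for E2F. The shares per gene were 18.8% and 16.3% for CHR, the opposite order to that per window, and 56.2% and 43.3% for CCAAT. These are matches of letters, and no match says only that the letters are not in this window. Of the 47 tested members with a window, 9 held a CHR: Cdc45, Cdc7, Dbf4, Fen1, Gins3, Mcm2, Mcm7, Pold2 and Rfc3. Of those 9, 4 were lower after 4-OHT, and their median log2 fold change was -0.18. Of the 38 without a CHR, 3 were lower and 1 was higher, with a median of -0.01. Members with an E2F match (19, of which 4 were lower, median -0.03) and without one (28, of which 3 were lower and 1 higher, median -0.02) had nearly the same median. Of the 27 with a CCAAT box, 6 were lower, with a median of -0.06. Of the 20 without one, 1 was lower and 1 higher, with a median of -0.005. The 3 members with both a CHR and an E2F match had a median of 0.05, and 1 of them was lower. These differences between motif classes were not tested. Over all genes tested, edgeR called 5.17% lower and 4.61% higher. Calls over all genes were not counted by motif, so no share for each motif can be set beside these counts.

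The targeted gene Lin9, counted over its whole length, had 156, 124 and 159 reads in control and 108, 107 and 101 after 4-OHT, 71.1% of the control level (edgeR log2 fold change -0.49, SE 0.11, adjusted p = 0.0011). The libraries held between 5859826 and 5913942 reads. Epithelial markers were clearly present, and 6 of 10 (Krt8, Krt18, Krt19, Epcam, Cdh1 and Nkx2-1) reached 1 CPM (read counts scaled by library total and TMM factor) in control, while Sftpc, Sftpa1 and Napsa were at 0. Sftpb had at most 1 read in a library. The summed marker level was 5490 to 5560 CPM in control and 5460 to 5620 CPM after 4-OHT. Most of this sum came from Krt8, Krt18 and Krt19, at means of 1840, 1557 and 1324 CPM in control. Nkx2-1 stood at 72.8% of control without overlap between groups, and missed the threshold (edgeR adjusted p = 0.198). Among the markers above 1 CPM, Epcam and Cdh1 were lower (edgeR adjusted p = 4.44e-12 and 0.00105), and their part in the results below was not tested. The fibroblast markers summed to 8.06 to 10.6 and 7.08 to 8.99 CPM, the endothelial markers to 8.04 to 10.6 and 9.62 to 9.84 CPM, and the leukocyte markers to 3.26 to 8.9 and 4.89 to 5.77 CPM.

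After 4-OHT, 8 of the 55 members that could be tested were lower and 1 was higher, and all 8 lower members belonged to the helicase group. They were the 6 genes of the MCM2-7 ring, Cdc45 and the kinase subunit gene Dbf4. The changes were small: Mcm4 fell by 8.70%, the least of the 8, and Dbf4 fell by 26.3%, the most. The higher member was Rfc5, a clamp loader subunit gene. A call also depends on read depth, since genes with fewer reads had larger standard errors. Outside the helicase group, Chaf1b and Cdc6 missed the threshold at log2 fold changes of -0.21 (SE 0.08) and -0.20 (SE 0.07). Mcm2, with more reads, passed at -0.18 (SE 0.04). The shares given next were not matched for read depth. The count of lower members was 14.5% of those tested, beside 5.17% of all 13355 genes tested, and the count of higher members was 1.82%, beside 4.61% of all genes (edgeR quasi-likelihood F test, threshold 0.05 after Benjamini-Hochberg adjustment over all genes). The median log2 fold change was -0.03 over the members and 0.00 over all genes tested, so most members stood near the centre of the transcriptome. In bulk RNA, a smaller share of cells in S phase and less RNA per cell cannot be told apart.

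Judged by single libraries, 15 members had all 3 4-OHT values below all 3 control values and 4 had all above, 27.3% and 7.27% of the tested members, beside 12.2% and 12.1% of all genes. DESeq2 called 4 members lower (Mcm2, Mcm5, Mcm6 and Dbf4) and 0 higher, where it called 2.88% of all genes with an adjusted p lower and 1.65% higher. Of the tested members, 20 (36.4%) had an unadjusted edgeR p under 0.05, beside 21.2% of all genes. In the authors' deposited table, lower values were called for 7 members and a higher one for 1, beside 3.9% and 3.24% of its genes. The member that separates the authors' count from the edgeR count is Mcm4, with an FDR of 0.0556 in the authors' deposited table.

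None of the 8 tested members of the licensing group passed the test in edgeR, and DESeq2 called 0. Over all genes edgeR called 5.17% lower and 4.61% higher, so no call among 8 genes is near those shares. Of the 8, 1 had an unadjusted edgeR p under 0.05 (12.5%, beside 21.2% of all genes). The median log2 fold change was -0.06 with 5 of 8 below zero, and the summed level was 98.69% of control. Orc6, the ORC subunit gene with the most reads among the 6, was counted at 417, 456 and 397 reads in control and at 442, 438 and 466 after 4-OHT. The groups overlapped, and the log2 fold change was 0.07 with a 95% interval from -0.06 to 0.19. The other subunits of this complex, which marks origins and loads MCM2-7, had log2 fold changes of 0.18 (Orc2), 0.04 (Orc3), -0.06 (Orc4) and -0.06 (Orc5). Orc1, the subunit whose level oscillates through the cell cycle in mammalian cells, had only 12, 11 and 15 reads in control and 12, 11 and 6 after 4-OHT. Its interval, from -1.13 to 0.32, spans more than that of any other tested member, so a change was not detectable at this depth.

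Cdc6, the ATPase that bridges ORC and MCM2-7, was counted at 308, 314 and 335 reads in control and at 299, 258 and 289 after 4-OHT. All 4-OHT libraries lay below all control libraries, but the difference missed the threshold (edgeR log2 fold change -0.20, adjusted p = 0.0768). Without 4-OHT replicate 1 it passed (edgeR adjusted p = 0.0483). Gmnn, which encodes geminin, the inhibitor of CDT1, had a log2 fold change of -0.05 and overlapping libraries.

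Cdt1, the loading factor that geminin inhibits, and Gins2, a CMG subunit gene, are listed at 0 reads in all 6 libraries. They were not tested, and 3 reads, the count that 0 allows, correspond to 0.506 to 0.515 CPM in these libraries. Both lie on chromosome 8, Gins2 from 120581266 to 120589075 and Cdt1 from 122568015 to 122573130 in RefSeq GRCm38.p6. In the order of the annotation they stand in a run of 72 protein-coding genes that are all listed at 0, from Usp10 to Galnt2 over 4.44 Mb. Rpl13, a ribosomal protein gene, and Cox4i1, a subunit gene of cytochrome c oxidase, are used by nearly every cell and stand in the same run. The genes on either side, Klhl36 and Pgbd5, had 25 and 14 reads over the 6 libraries. Nothing can therefore be said of the RNA level of Cdt1 or Gins2 from these counts, and why the run is at 0 was not tested.

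The RNA of the MCM2-7 ring genes was lower, though the 6 genes were not tested as a set. These genes encode the motor of the replicative helicase. Their summed level was 1115, 1130 and 1128 CPM in the control libraries and 981.8, 968.1 and 995.4 CPM after 4-OHT. Every 4-OHT library lay below every control library, and the sum fell by 12.66%. All 6 genes were called lower by edgeR, with log2 fold changes between -0.28 and -0.13 and standard errors of 0.04 to 0.05. DESeq2 called 3 of them, Mcm2, Mcm5 and Mcm6. All 6 were below zero in the main analysis and under 13 other settings (other scalings, filters and tests, a block, and each library left out in turn), under which between 3 and 6 were called. Among the 49 tested members outside the ring, 2 were lower (4.08%, beside 5.17% of all genes) and 1 was higher (2.04%, beside 4.61%). Their median log2 fold change was 0.01. Of these 49, 14 had an unadjusted edgeR p under 0.05 (28.6%, beside 21.2% of all genes). All 4-OHT libraries lay below all control libraries for 9 (18.4%, beside 12.2%) and above them for 4 (8.16%, beside 12.1%).

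Mcm6 was counted at 1281, 1303 and 1251 reads in control and at 1106, 1019 and 1076 after 4-OHT. The lowest control library stood 145 reads above the highest 4-OHT library. Its level fell from 219.2 ± 4.67 to 180.7 ± 8.0 CPM (mean ± SD, n = 3 each), with an edgeR log2 fold change of -0.28 (SE 0.04, adjusted p = 1.84e-07). Mcm5 fell by nearly as much. It had 879, 896 and 880 reads in control and 706, 769 and 759 after 4-OHT, or 151.7 ± 1.87 and 126.1 ± 5.53 CPM (edgeR log2 fold change -0.27, SE 0.05, adjusted p = 1.18e-05). MCM5 forms with MCM2 the gate through which the ring opens around DNA. Mcm2 was counted at 1148, 1115 and 1134 reads in control and at 1010, 1014 and 1014 after 4-OHT, and its level fell from 194.1 ± 2.52 to 171.5 ± 0.546 CPM (edgeR log2 fold change -0.18, SE 0.04, adjusted p = 0.00141). These 3 genes passed the test under all 13 of those settings.

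The calls of Mcm7, Mcm3 and Mcm4 were less stable, while their standard errors, 0.04 to 0.05, were like those of the other ring genes. MCM7 lies beside MCM3 in the ring, and Mcm7 is also the host gene of Mir25, Mir93 and Mir106b. Mcm7 was counted at 747, 844 and 818 reads in control and at 723, 679 and 716 after 4-OHT, from 137.7 ± 8.82 to 119.6 ± 4.37 CPM (edgeR log2 fold change -0.20, SE 0.05, adjusted p = 0.00236; DESeq2 adjusted p = 0.0569). Control replicate 1 was only 24 reads above the highest 4-OHT library. Its annotated span shares 91 bases with Ap4m1, which had 715 reads over the 6 libraries, and reads from that overlap cannot be assigned with certainty. Mcm3 had 1324, 1288 and 1284 reads in control and 1171, 1177 and 1240 after 4-OHT (edgeR log2 fold change -0.14, SE 0.04, adjusted p = 0.0166). It missed the threshold in DESeq2 (adjusted p = 0.143) and without control replicate 1, 4-OHT replicate 1 or 4-OHT replicate 2. Mcm4, whose product forms with MCM6 and MCM7 the catalytic side of the ring, had 1133, 1133 and 1212 reads in control and 1074, 1081 and 1060 after 4-OHT (edgeR log2 fold change -0.13, SE 0.04, adjusted p = 0.0301). Its call was lost in DESeq2 and in each edgeR analysis without 1 library except that without control replicate 2, with adjusted p-values of up to 0.238. Its libraries did not overlap, but the gap between the groups was 52 reads.

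Mcmbp encodes a protein that binds MCM subunits outside chromatin. It was counted at 449, 481 and 510 reads in control and at 421, 442 and 442 after 4-OHT, with no overlap, and missed the threshold (edgeR log2 fold change -0.16, adjusted p = 0.0808). Without control replicate 1 it passed (edgeR adjusted p = 0.0475). Mcm8 and Mcm9, whose products form a separate helicase of homologous recombination, were not among the members that passed. Mcm8 had 138, 129 and 125 reads in control and 133, 135 and 134 after 4-OHT, a log2 fold change of 0.02 with an interval from -0.20 to 0.23. Mcm9 had 117, 102 and 122 reads in control and 139, 128 and 131 after 4-OHT, all higher, with a log2 fold change of 0.20 (edgeR adjusted p = 0.29). The gene Asf1a, which lies within the annotated span of Mcm9, was listed at 0 reads.

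**Figure D1:**
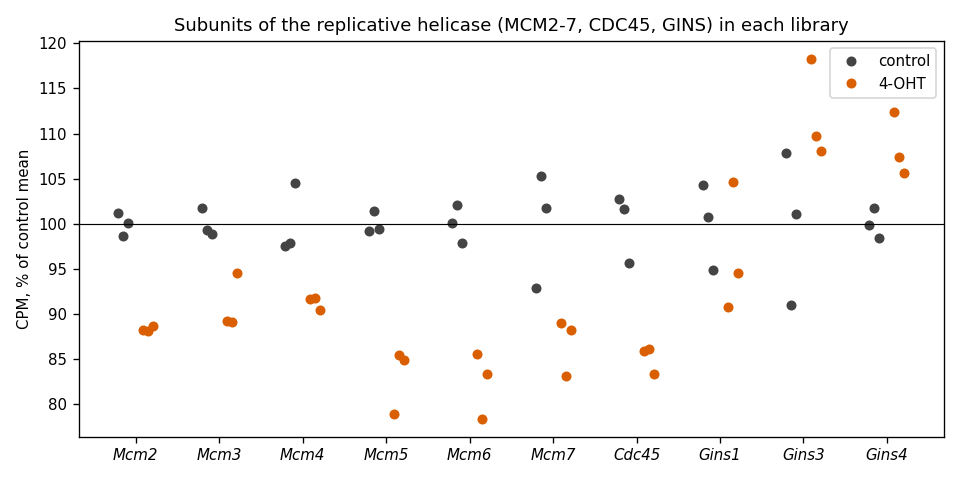
CPM of each tested subunit gene of the CMG helicase in each library, as a percentage of that gene's control mean. Dark points are the 3 control and orange points the 3 4-OHT libraries. For Mcm2 to Mcm7 and Cdc45 the 4-OHT points lie between 78.44% and 94.53% and below all control points, for Gins3 and Gins4 they lie between 105.6% and 118.3% and above them, and for Gins1 the groups overlap. Gins2, listed at 0, is not drawn.

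The genes of the other CMG subunits did not all move in the direction of the ring genes. Cdc45, which joins the ring when it is activated, was counted at 303, 299 and 282 reads in control and at 256, 258 and 248 after 4-OHT. The groups did not overlap, and its level fell from 50.5 ± 1.90 to 43.0 ± 0.798 CPM (edgeR log2 fold change -0.23, SE 0.07, adjusted p = 0.0309). The call was lost in DESeq2 (adjusted p = 0.252) and in each edgeR analysis without 1 library except that without control replicate 3. The annotated span of Cdc45 shares 237 bases with Ufd1 and 1687 with Gm52240. Neither was found by symbol in the count matrix, so their reads are not known. None of the 3 tested GINS genes passed. Gins4 had 316, 321 and 311 reads in control and 359, 345 and 337 after 4-OHT, higher in every library, with a log2 fold change of 0.12 and an interval from -0.02 to 0.25. Gins3 had 94, 79 and 88 reads in control and 104, 97 and 95 after 4-OHT, also without overlap, with a log2 fold change of 0.16 and an interval from -0.09 to 0.42. Gins1 had 165, 159 and 150 reads in control and 145, 168 and 151 after 4-OHT, a log2 fold change of -0.05. The difference between the ring genes and the GINS genes was not itself tested.

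Dbf4 had the lowest adjusted p of all members. It encodes the regulatory subunit that activates CDC7, the kinase that phosphorylates the loaded ring. The reads numbered 692, 596 and 690 in control and 480, 527 and 470 after 4-OHT. The groups did not overlap, with a gap of 69 reads between them. Its level fell from 113.0 ± 9.24 to 83.4 ± 4.87 CPM, by 26.3% (edgeR log2 fold change -0.44, SE 0.06, adjusted p = 3.07e-09; DESeq2 adjusted p = 3e-06). Dbf4 passed under all 13 of those settings. Cdc7, the catalytic partner, had 160, 170 and 155 reads in control and 138, 143 and 125 after 4-OHT, all lower, and missed the threshold (edgeR log2 fold change -0.27, interval -0.48 to -0.07, adjusted p = 0.0779).

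Of the factors that bring CDC45 and GINS to the ring, Ticrr, the CDK substrate also called treslin, had 224, 208 and 198 reads in control and 175, 196 and 163 after 4-OHT (edgeR log2 fold change -0.26, adjusted p = 0.0573). The groups were apart by 2 reads, and without 4-OHT replicate 2 the gene passed (edgeR adjusted p = 0.034). Topbp1, the scaffold that TICRR binds, was counted at 1058, 1021 and 1070 reads in control and at 1013, 1102 and 1121 after 4-OHT. Its groups overlapped around a log2 fold change of 0.02, with an interval from -0.07 to 0.11. Mcm10, which acts when the CMG helicase starts to unwind, had a log2 fold change of 0.07. In the helicase group as a whole 8 of 18 tested members were lower (44.4%, beside 5.17% of all genes). The median log2 fold change was -0.15, and the summed level fell from 1807 ± 8.87 to 1623 ± 15.0 CPM, to 89.78% of control.

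**Figure D2:**
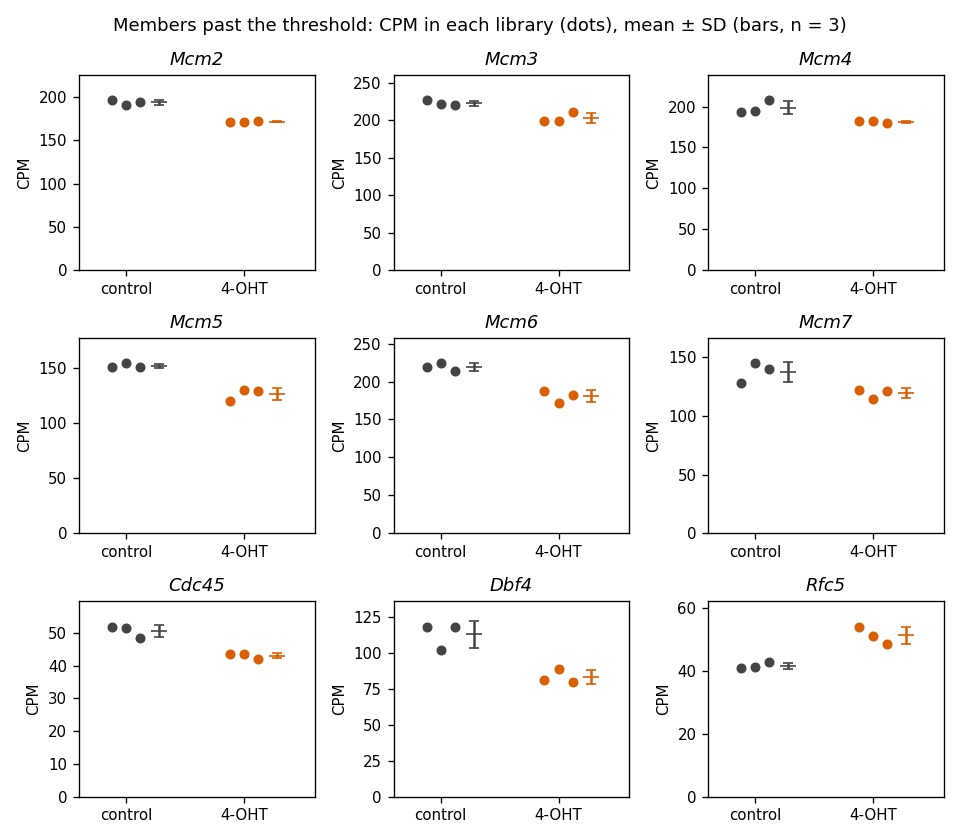
CPM of the 9 members past the threshold in each library, with mean ± SD (n = 3) beside the points; every axis starts at 0. In all 9 panels the 4-OHT points lie entirely on 1 side of the control points, below for 8 genes and above for Rfc5, and the difference in mean relative to control is largest for Dbf4 (-26.3%) and Rfc5 (23.1%).

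The polymerase group had no member past the threshold in edgeR (beside 5.17% of all genes lower and 4.61% higher) or DESeq2. Among 11 genes, no call is near those shares. Of the 11 tested members 4 had an unadjusted edgeR p under 0.05 (36.4%, beside 21.2% of all genes). The median log2 fold change was 0.01 and the summed level was 98.45% of control. Pole, the catalytic subunit of the leading-strand polymerase epsilon, was counted at 433, 491 and 502 reads in control and at 520, 526 and 472 after 4-OHT. The groups overlapped, with a log2 fold change of 0.07 and an interval from -0.05 to 0.19. Its partner subunits had log2 fold changes of -0.02 (Pole2), 0.02 (Pole3) and 0.01 (Pole4). In polymerase alpha-primase, which lays down the primers, the catalytic subunit gene Pola1 stood at -0.15 (interval -0.28 to -0.02), Pola2 at 0.06, the primase gene Prim1 at -0.17 (interval -0.31 to -0.03) and the large primase subunit gene Prim2 at 0.16. Of these only Prim1 had libraries that did not overlap, at 354, 319 and 322 reads in control and 307, 294 and 293 after 4-OHT (edgeR adjusted p = 0.117). In polymerase delta, which copies the lagging strand, the log2 fold changes were -0.03 for Pold1, -0.17 for Pold2 (edgeR adjusted p = 0.0854) and 0.01 for Pold3. Without 4-OHT replicate 3 Pold2 passed (edgeR adjusted p = 0.025).

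In the clamp group 1 of 8 tested members passed, and it was higher (12.5%, beside 4.61% of all genes). Rfc5, a small subunit gene of the clamp loader that opens PCNA at primer ends, had 239, 239 and 249 reads in control and 318, 302 and 286 after 4-OHT. The groups did not overlap, and the level rose from 41.5 ± 0.986 to 51.1 ± 2.70 CPM, by 23.1% (edgeR log2 fold change 0.30, SE 0.08, adjusted p = 0.00327). The call was lost in DESeq2 (adjusted p = 0.0791) and held under the other 12 settings. The 4 remaining clamp loader genes, which encode the other parts of the same complex, had log2 fold changes of 0.02 (Rfc1), 0.02 (Rfc2), 0.05 (Rfc3) and 0.17 (Rfc4, interval -0.03 to 0.38). All were above zero and none passed. Rfc4 shares 185 bases of its span with Eif4a2, which had 8186 reads over the 6 libraries.

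Pcna, the clamp that tethers polymerases to DNA, was counted at 1067, 1135 and 1051 reads in control and at 1009, 1058 and 1053 after 4-OHT. The order of single libraries changes once they are scaled. In CPM the values were 182.6, 194.9 and 180.1 in control and 171.1, 178.5 and 178.7 after 4-OHT, so that the groups were just apart, and the log2 fold change was -0.08 (edgeR adjusted p = 0.294). A pseudogene copy, Pcna-ps2, has its own line in the matrix, at 1037, 1072 and 1027 reads in control and 980, 959 and 944 after 4-OHT (edgeR log2 fold change -0.14, adjusted p = 0.0248). Reads of near-identical copies can be split between them, so the level of Pcna is uncertain. When the 2 lines were summed, a choice made after seeing the data, the log2 fold change was -0.11 (SE 0.04) and passed the threshold (edgeR adjusted p = 0.0334).

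The Okazaki fragment enzymes differed in how well they were measured. Lig1, the ligase that joins the fragments, had 643, 646 and 649 reads in control and 568, 609 and 597 after 4-OHT. Every 4-OHT library was lower, and the gene missed the threshold (edgeR log2 fold change -0.15, interval -0.25 to -0.04, adjusted p = 0.0627). Lig1 shares 1547 bases of its span with Zswim9, which was not found by symbol in the count matrix. Fen1, the nuclease that removes the displaced flap, had only 45 to 67 reads in control and 47 to 64 after 4-OHT, with an interval from -0.32 to 0.35. It shares 192 bases of its span with Tmem258, which had 1466 reads over the 6 libraries.

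None of the 10 fork and chromatin members passed in edgeR (beside 5.17% of all genes lower and 4.61% higher) or DESeq2. Among 10 genes, no call is near those shares. The summed level of the 10 was 99.07% of control. Of the 10, 2 had an unadjusted edgeR p under 0.05 (20%, beside 21.2% of all genes). Rpa1, the large subunit of the single-strand binding complex RPA, was counted at 910, 993 and 934 reads in control and at 943, 946 and 963 after 4-OHT. Its groups overlapped, and its interval, from -0.10 to 0.08, was among the narrowest. Rpa2 and Rpa3 stood at log2 fold changes of 0.05 and -0.06. Timeless, which forms with TIPIN the fork protection complex, had 324, 331 and 320 reads in control and 319, 345 and 292 after 4-OHT (log2 fold change -0.05), and Tipin stood at -0.10. Clspn, the checkpoint mediator that travels with them, stood at 0.16 (edgeR adjusted p = 0.205), and Wdhd1, which links the helicase to polymerase alpha, at 0.07.

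Chaf1a, the large subunit of the CAF-1 chaperone that deposits histones behind the fork, had 549, 581 and 520 reads in control and 566, 526 and 534 after 4-OHT, with overlapping groups and a log2 fold change of -0.04. Chaf1b, its partner, stood at -0.21 (edgeR adjusted p = 0.0806), with 255 to 303 reads in control and 226 to 269 after 4-OHT. It passed without control replicate 2 (edgeR adjusted p = 0.0299). Slbp, which binds the stem-loop of histone mRNA, stood at 0.01.

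Genes of the same pathway outside the list were called lower at a share near that of all genes. Of 43 tested genes of initiation control, fork enzymes, replication checkpoint, fork remodelling and histone chaperones, 2 were lower (4.65%, beside 5.17% of all genes). Higher calls numbered 0 (beside 4.61% of all genes), and the median log2 fold change was -0.01. Of these genes 6 had an unadjusted edgeR p under 0.05 (14%, beside 21.2% of all genes), and DESeq2 called 0 of them. Ccne1, the cyclin that drives S phase entry with CDK2, had 112, 118 and 116 reads in control and 87, 86 and 86 after 4-OHT (edgeR log2 fold change -0.44, SE 0.12, adjusted p = 0.00993). Nasp, a chaperone that stores histones H3 and H4, had 748, 704 and 771 reads in control and 679, 682 and 646 after 4-OHT (edgeR log2 fold change -0.17, SE 0.05, adjusted p = 0.02). Both genes had no overlap between groups. In the subgroups with none called, the genes with the highest mean level had log2 fold changes of -0.05 (Top1, the topoisomerase that relieves torsion ahead of the fork), 0.02 (Rad9a, a subunit of the checkpoint clamp) and 0.03 (Rfwd3, a ubiquitin ligase that acts on RPA).

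Set beside lists of neighbouring cell cycle functions, the members were closer to the deoxynucleotide enzymes than to the mitotic genes. Of 14 tested genes of deoxynucleotide supply 1 was lower (7.14%, near the 5.17% of all genes). It was Rrm2, the ribonucleotide reductase subunit that limits deoxynucleotide production. Rrm2 had 1193, 1238 and 1225 reads in control and 1050, 1089 and 1095 after 4-OHT (edgeR log2 fold change -0.19, SE 0.04, adjusted p = 0.000351). Dctd, the deoxycytidylate deaminase, was next by p and missed the threshold (edgeR log2 fold change -0.15, adjusted p = 0.228). The median of this list was -0.01. Of 25 tested mitotic genes 24 were lower (96%), with a median of -0.83, and their summed level was 57.46% of control. Mki67, the antigen of proliferating cells, fell from 438.2 ± 23.2 to 171.5 ± 8.09 CPM (edgeR adjusted p = 9.11e-45), and Aspm, a spindle pole protein gene, had a log2 fold change of -1.68 (edgeR adjusted p = 1.89e-38). Even Dbf4, the member that fell most, lost less than the mitotic median. These lists were compared by their counts and medians, and the difference between them was not tested.

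**Figure D3:**
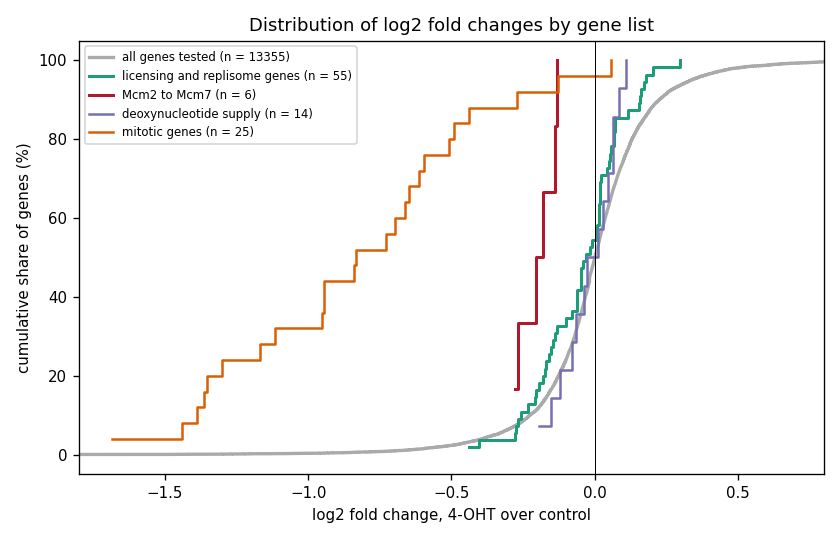
Cumulative share of genes (%) against log2 fold change, 4-OHT over control, for all 13355 genes tested, the 55 members, Mcm2 to Mcm7, the deoxynucleotide supply genes and the mitotic genes. The members follow the curve of all genes over most of its length, Mcm2 to Mcm7 lie between -0.28 and -0.13, and the mitotic genes have a median of -0.83.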

How the data were processed

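RNA from 3 control and 3 4-OHT libraries was analysed out of 33 samples, and 27 ChIP-seq samples were not used here. Per the labels, libraries were made from polyadenylated RNA with an NEBNext Ultra kit. The deposited matrix holds raw read counts per Ensembl gene. The authors' deposited table holds log2 fold changes and log2 CPM with p-values and FDR, per the file headers. The builds mm10, GRCm38.p6, GRCh37 and hg19 stand in the submitters' processing notes beside edgeR, bedtools 2.26.0, Bowtie2, Bowtie 1.1.2 and TopHat2 2.1.0, without their roles. Counter, annotation and strand setting: not given in the sources used here, so reads of overlapping genes cannot be assigned with certainty.

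Of 38951 lines, 27 repeats (0.109% of reads) were dropped. Counts were tested in R 4.3.3 with edgeR 4.0.16 (filterByExpr with minimum count 10 and minimum total 15, TMM factors 0.9938 to 1.005, robust quasi-likelihood F test, two-sided, with no block). Benjamini-Hochberg adjustment ran over 13355 genes with a threshold of 0.05. Standard errors were derived from the F statistic, and 95% intervals from the t distribution. Libraries of the same group were compared by chi-square per degree of freedom, which was 1.26 to 1.48, above sampling noise, so none were merged. Alternatives were other scalings and filters, DESeq2 1.42.0, limma-voom (limma 3.58.1), a replicate block, and leaving out each library. The procedure was run on simulated data, in which the smallest change was larger than that of any called member but Dbf4. That run thus does not show how well such small changes are found. The members and lists were chosen with earlier results of these data known, so no test was run over a list. Values are given for each library for every member called and for the member with the highest mean CPM of each subgroup; pathway genes outside the list are named if called, or by the highest mean CPM where a subgroup had none called, and comparison genes by the 2 smallest p-values. Library values of other members, the genes on either side of the run at 0 and Pcna-ps2 were chosen after their values were seen.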

Additional observations from a re-analysis of the deposited data

How the results depend on the processing

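The counts of 8 members lower and 1 higher were found in edgeR with RLE size factors, with library totals, without a filter, with a filter at 1 CPM in 3 libraries, and in limma-voom. DESeq2 gave 4 lower and 0 higher. With the replicate block, 8 were lower and 1 was higher, and no call of a member changed. No pairing by replicate number was detectable, since correlations of same-numbered libraries were -0.00973, 0.00964 and -0.0259. Such values cannot show whether same-numbered libraries were prepared together. Leaving out each library gave 6 to 8 lower and 1 higher, and a median log2 fold change between -0.0437 (without 4-OHT replicate 1) and -0.0145 (without 4-OHT replicate 2), beside -0.029 with all 6. With library totals the median was -0.0196, while that of all genes moved to 0.00996. Over all genes, leaving out control replicate 1 gave 508 lower and 403 higher. Of the 46 members that missed the threshold, 17 changed sign in at least 1 alternative and 5 passed in 1, each named above with its value, so the direction of small differences is not secure. Genes with few reads, such as Orc1 and Fen1, are limited by depth.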
